A study of Mus musculus with 14 samples.

Results

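The 10 genes Sox1, Sox2, Sox3, Sox4, Sox5, Sox6, Sox8, Sox9, Sox10 and Sox11 encode the Sox transcription factors of stem cell, neuronal and glial states in the nervous system. They were taken by name from the array annotation, and they are 10 of 23152 genes with a value. All 10 lay above the dim limit, a log2 level of 4.40, under which 5788 genes were left out, and 17364 genes were tested. Expression was measured on 14 Affymetrix arrays, one for each culture and medium, of neural stem cells. The cells came from mice at postnatal day 4, from the subventricular zone along the lateral ventricles. The 3 Cic-/- cultures (clones 5, 6 and 7) and the 4 Cic+/+ cultures (clones 1 to 4) each came from an individual animal. Per the labels the clones were transduced with an adenovirus carrying Cre, and the Cic-/- clones lost their floxed Cic alleles, so the adenovirus and the Cre are shared by both genotypes. For 24 h, each clone grew in NeuroCult proliferation medium that either held EGF or lacked it. The groups are 3 Cic-/- arrays with EGF, 3 Cic-/- arrays without EGF, 4 Cic+/+ arrays with EGF and 4 Cic+/+ arrays without EGF. The product of Cic, capicua, represses transcription until ERK signalling downstream of growth factors releases its targets. Clone is the labels' word for the culture of 1 animal, and the sources used here do not say whether it descends from 1 cell.

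Sox proteins bind DNA through an HMG box related to that of Sry, and they act with partner factors that set which genes they control. In the developing and postnatal brain the SoxB1 proteins Sox1, Sox2 and Sox3 keep progenitors undifferentiated, and the SoxC proteins Sox4 and Sox11 act in neuronal differentiation. The SoxD proteins Sox5 and Sox6 lack a transactivation domain of their own and modulate other Sox factors. Of the SoxE proteins, Sox9 acts in stem cells and in the start of gliogenesis, while Sox10, with Sox8, drives the oligodendrocyte lineage up to myelin gene expression.

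The level of a gene is the median of the log2 values of its probesets in an array, and a change is a difference of such levels. Sox10 differed most between the groups. Its level in Cic-/- minus that in Cic+/+ cells was -1.53 ± 0.43 with EGF and -1.34 ± 0.43 without EGF on the log2 scale (limma estimate ± SE), and it was lower with EGF than without it in 7 of 7 clones. Sox8 was also lower with EGF in 7 of 7 clones, but its change between genotypes was within the spread of the clones. The changes of the other 8 genes between genotypes or media were at most 0.46 in size on the log2 scale. In limma's test, with Benjamini-Hochberg adjustment over the 17364 genes and a threshold of 0.05, none of the 10 genes passed in any comparison, and the calls for Sox10 and Sox8 depended on clone 6 or on pairing the arrays of a clone, as given beside each value.

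The promoters of Sox2 and Sox8 are shown because Sox2 is the stem cell gene of the set, with overlapping groups in every comparison, and Sox8 was lower with EGF in every clone of both genotypes. Both are the 250 bases before to 50 bases after the start of the gene from RefSeq, mouse build GRCm38.p6. Sox2 lies at chr3:34649745-34650044 on the + strand, and Sox8 at chr17:25570637-25570936 on the - strand. Capitals mark ACAAAG, a core motif bound by Sox factors, found on either strand.
Sox2: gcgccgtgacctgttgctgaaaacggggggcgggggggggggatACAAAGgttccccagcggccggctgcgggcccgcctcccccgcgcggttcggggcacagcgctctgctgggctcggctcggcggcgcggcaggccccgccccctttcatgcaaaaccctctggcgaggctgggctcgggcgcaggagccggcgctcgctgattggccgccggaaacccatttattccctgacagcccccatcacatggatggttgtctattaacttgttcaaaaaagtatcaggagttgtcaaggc
Sox8: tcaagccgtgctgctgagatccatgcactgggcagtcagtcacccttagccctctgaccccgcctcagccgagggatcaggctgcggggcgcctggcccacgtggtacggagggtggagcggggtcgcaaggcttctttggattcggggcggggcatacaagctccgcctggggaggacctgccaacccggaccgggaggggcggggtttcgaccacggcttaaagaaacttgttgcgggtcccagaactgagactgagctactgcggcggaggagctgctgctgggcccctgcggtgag
The GC content of each was 66.3%, against a median of 52.7% over all promoters of the table. RefSeq's table held 12 promoter windows for 7 of the 10 genes (Sox1, Sox2, Sox4, Sox5, Sox6, Sox8 and Sox11). ACAAAG, searched on both strands, stood in 6 of the 12 windows, of which 5 belong to Sox6, and in 18.7% of 32851 promoters of the same length. ACAATG stood in 3 of the 12 and in 12.6% of all. The capicua-type motif, which is TGAATGA, or TGAATGG, or TCAATGA, or TCAATGG on either strand, was found in 0 of the 12 windows and in 11.4% of all promoters. These letter matches are descriptions of the windows and say nothing of binding.

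The level of Cic itself checked the labels. It averaged 7.54 ± 0.13 in Cic-/- cells with EGF (SD, n = 3) and 9.50 ± 0.13 in Cic+/+ cells with EGF (SD, n = 4), and 7.26 ± 0.22 in Cic-/- cells against 9.43 ± 0.21 in Cic+/+ cells without EGF. Cic was therefore low in all 6 arrays of the Cic-/- clones. Array medians lay between 6.49 and 6.54. Over 8 neural stem cell markers (Nes, Vim, Fabp7, Slc1a3, Prom1, Msi1, Hes5 and Nr2e1) the mean level was 9.66 to 9.93 in Cic-/- cells with EGF, 9.87 to 10.10 in Cic-/- cells without EGF, 10.04 to 10.20 in Cic+/+ cells with EGF and 10.06 to 10.30 in Cic+/+ cells without EGF, and all 8 had a mean over the arrays above the dim limit, with Prom1 below it in 1 of 3 Cic-/- arrays with EGF. The mean levels of the microglial, endothelial and pericyte marker lists lay between 4.41 and 5.39 in every array, close to the dim limit. Single markers were higher, such as the pericyte and fibroblast marker Col1a1 (5.59 to 7.42) and the microglial marker Cx3cr1 (5.80 to 6.48). The 5 ependymal markers averaged 5.09 to 5.52, and the 4 measured Schwann cell and neural crest markers 6.54 to 7.19, with no group apart from the others. Xist was at 4.73 (EGF) and 3.83 (no EGF) in clone 4 and between 11.96 and 12.57 in all 12 arrays of clones other than clone 4.

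**Figure D1:**
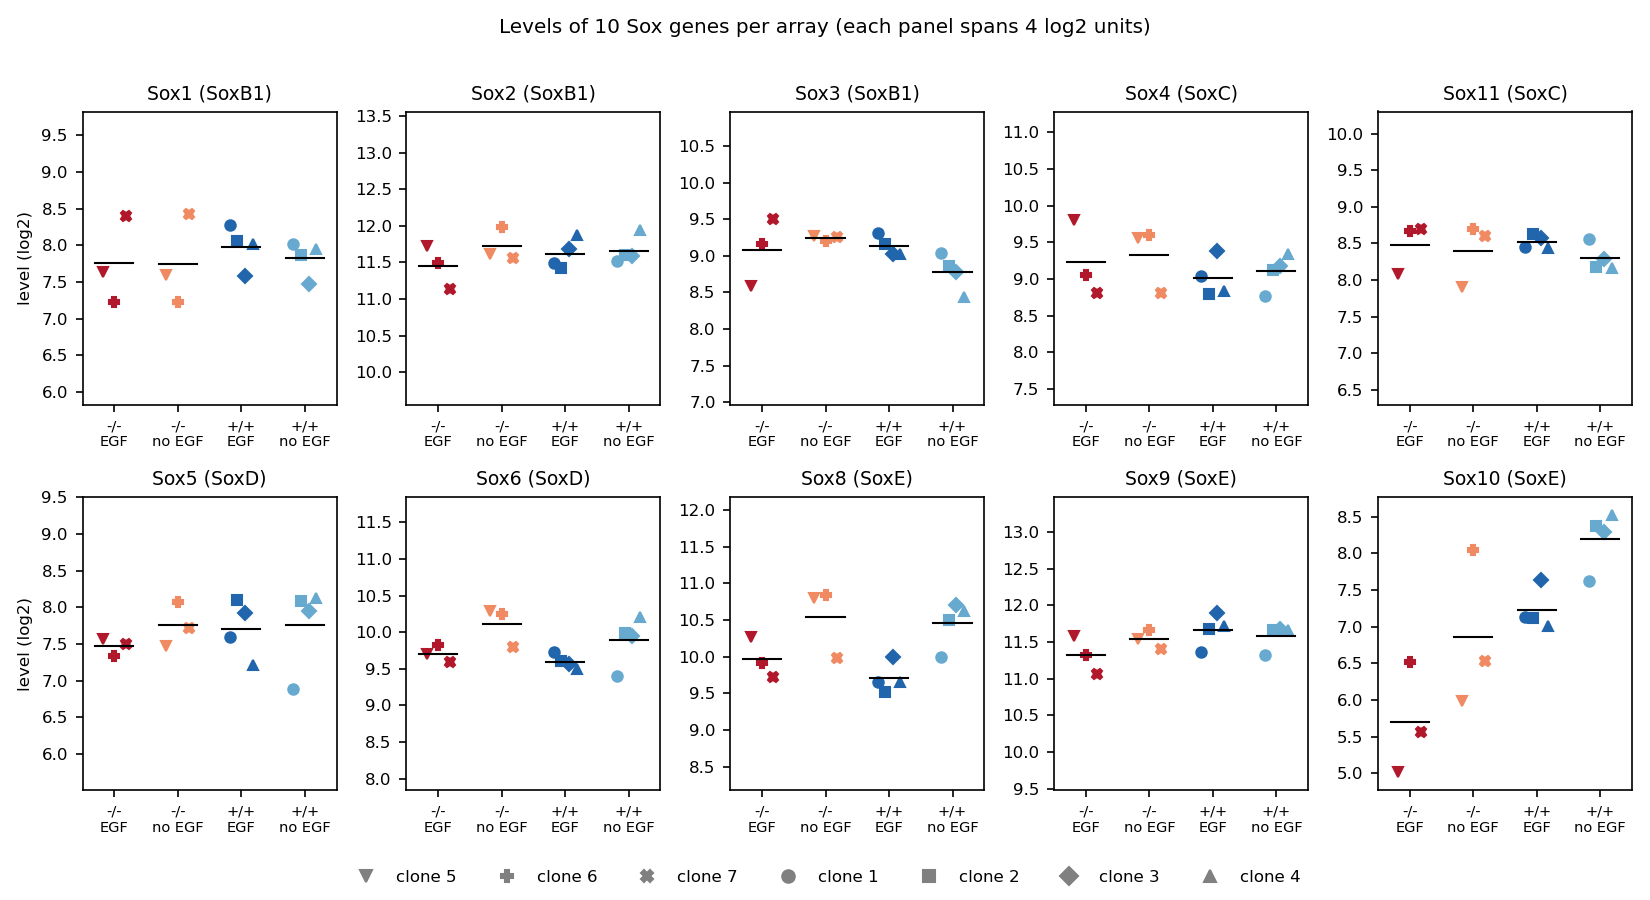
Level of each of the 10 Sox genes in every array (log2 scale, vertical axis), by genotype and medium; each marker is 1 array with its shape giving the clone, lines are group means, and every panel spans 4 log2 units. Sox10 runs from 5.02 to 8.52 and spreads over more of its panel than any other gene, with the 3 Cic-/- arrays with EGF below all Cic+/+ arrays.

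The first question was which Sox genes differed between Cic-/- and Cic+/+ cells in each medium. With EGF, 0 of the 10 genes passed in limma's test, while 0.317% of all tested genes passed. At an unadjusted p under 0.05 the count was 1 of 10, Sox10, against 10.6% of all genes. The median change of the 10 genes was -0.10 and that of all tested genes 0.02. Without EGF, 0 of 10 passed against 0.553% of all genes, and 2 of 10 (Sox10 and Sox3) had an unadjusted p under 0.05 against 10.8%. The median change was 0.07 for the 10 genes and 0.00 for all genes. The arrays of the 2 media come from the same clones, so these are not separate tests of the clones.

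Among the SoxB1 genes, Sox2, which keeps neural stem cells self-renewing, was at 11.73, 11.49 and 11.14 in Cic-/- clones 5, 6 and 7 with EGF, against 11.49, 11.42, 11.68 and 11.87 in Cic+/+ clones 1 to 4 with EGF. Without EGF it was at 11.62, 11.98 and 11.56 in the Cic-/- clones, against 11.52, 11.60, 11.59 and 11.94 in the Cic+/+ clones. The groups overlapped in both media. The genotype change of Sox2 was -0.16 with EGF (95% interval -0.54 to 0.22) and 0.06 without EGF (-0.32 to 0.44), so changes beyond 0.54 in size lay outside both intervals. The SD of Sox2 over the 14 arrays was 0.22, close to that of Sox9 (0.22).

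Sox1, a SoxB1 factor measured by 1 probeset, was at 7.64, 7.23 and 8.40 in the Cic-/- clones and at 8.28, 8.06, 7.59 and 8.02 in the Cic+/+ clones with EGF. In the medium without EGF, Sox1 was at 7.59, 7.22 and 8.43 in the Cic-/- clones and at 8.02, 7.86, 7.47 and 7.96 in the Cic+/+ clones. Clone 7 was the highest and clone 6 the lowest in both media, so Sox1 followed the culture it was measured in. Its genotype change was -0.23 ± 0.30 with EGF and -0.08 ± 0.30 without EGF. The adjusted p values were 0.852 and 0.963.

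Sox3, the X-linked SoxB1 gene, was at 8.58, 9.16 and 9.50 in the Cic-/- clones with EGF, against 9.31, 9.16, 9.02 and 9.02 in the Cic+/+ clones, and its change was -0.05 ± 0.20. Without EGF it was at 9.28, 9.20 and 9.26 in the Cic-/- clones, against 9.04, 8.86, 8.78 and 8.44 in the Cic+/+ clones. Here every Cic-/- array was higher than every Cic+/+ array, which held for 4.2% of all tested genes. The change was 0.46 ± 0.20 (95% interval 0.04 to 0.88), or 1.38-fold, with an adjusted p of 0.418, so it did not pass. The lowest array was that of clone 4, the clone with low Xist. With each clone left out in turn the change ran from 0.35 to 0.55.

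The SoxC genes showed no genotype change past the spread of the clones. Sox4, which acts in newborn neurons and progenitors, was at 9.81, 9.06 and 8.81 in the Cic-/- clones, against 9.04, 8.80, 9.39 and 8.83 in the Cic+/+ clones with EGF. Sox4 without EGF was at 9.56, 9.59 and 8.81 in the Cic-/- clones, against 8.77, 9.13, 9.18 and 9.34 in the Cic+/+ clones. Its changes were 0.21 ± 0.26 with EGF and 0.22 ± 0.26 without EGF, and the groups overlapped in each medium. Sox11, its close relative, was at 8.09, 8.67 and 8.70 in the Cic-/- clones, against 8.45, 8.62, 8.57 and 8.44 in the Cic+/+ clones with EGF. Without EGF Sox11 was at 7.90, 8.70 and 8.61 in the Cic-/- clones, against 8.56, 8.17, 8.29 and 8.16 in the Cic+/+ clones. Clone 5 was the highest Sox4 array and the lowest Sox11 array with EGF. The 95% intervals of the Sox11 change, -0.48 to 0.40 with EGF and -0.33 to 0.54 without EGF, held 0.

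Of the SoxD genes, Sox5, which has been described as a brake on oligodendrocyte differentiation, was at 7.57, 7.34 and 7.50 in the Cic-/- clones, against 7.60, 8.10, 7.92 and 7.22 in the Cic+/+ clones with EGF. Sox5 without EGF was at 7.47, 8.08 and 7.71 in the Cic-/- clones, against 6.88, 8.09, 7.94 and 8.13 in the Cic+/+ clones. The changes of Sox5 were -0.24 ± 0.29 and -0.01 ± 0.29, and clone 1 without EGF lay well below the other Cic+/+ arrays of its group. Sox6, which pairs with Sox5, was at 9.70, 9.83 and 9.60 in the Cic-/- clones, against 9.73, 9.61, 9.56 and 9.49 in the Cic+/+ clones with EGF. Without EGF Sox6 was at 10.28, 10.25 and 9.80 in the Cic-/- clones, against 9.41, 9.99, 9.95 and 10.21 in the Cic+/+ clones. The changes of Sox6 were 0.11 ± 0.18 with EGF (adjusted p = 0.885) and 0.22 ± 0.18 without EGF (adjusted p = 0.730), and with the mean of the probesets in place of the median they were -0.21 and -0.05.

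Of the SoxE genes, Sox10 and Sox9 had negative genotype estimates in both media and Sox8 had positive ones, and none passed. Sox10, the factor that carries oligodendrocyte progenitors into myelin gene expression, was at 5.02, 6.51 and 5.56 in Cic-/- clones 5, 6 and 7 with EGF, against 7.14, 7.11, 7.64 and 7.00 in Cic+/+ clones 1 to 4 with EGF. All 3 Cic-/- arrays lay below all 4 Cic+/+ arrays, which held for 5.91% of all tested genes. The change was -1.53 ± 0.43 (95% interval -2.44 to -0.61), a 2.88-fold lower level in Cic-/- cells, with an unadjusted p of 0.00302 and an adjusted p of 0.176. Sox10 without EGF was at 5.99, 8.05 and 6.54 in the Cic-/- clones, against 7.62, 8.38, 8.30 and 8.52 in the Cic+/+ clones. Clone 6 lay above Cic+/+ clone 1 and the other Cic-/- clones lay below every Cic+/+ array, so the groups overlapped. The change without EGF was -1.34 ± 0.43 (95% interval -2.26 to -0.43), or 2.54-fold, with an adjusted p of 0.228.

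Clone 6 decided the call for Sox10. Without both arrays of clone 6 the change was -1.93 with EGF (adjusted p = 0.0146) and -1.94 without EGF (adjusted p = 0.0110), and 0.242% and 0.438% of all tested genes passed in those fits. Leaving out each clone in turn gave changes between -1.93 and -1.19 with EGF, with adjusted p values between 0.0146 and 0.410, and between -1.94 and -0.91 without EGF, with adjusted p values between 0.0110 and 0.446. With the levels of both media averaged per clone, a setting chosen after seeing the data, the change of Sox10 was -1.43 ± 0.37 with an adjusted p of 0.195, where 0.265% of genes passed. In cultures measured in bulk, fewer cells that express a gene and less RNA of it per cell cannot be told apart, which applies to every value here.

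Sox9, which acts in stem cells and early glia, was at 11.59, 11.32 and 11.06 in the Cic-/- clones, against 11.36, 11.68, 11.90 and 11.71 in the Cic+/+ clones with EGF. Its change was -0.34 ± 0.17 (95% interval -0.69 to 0.02, adjusted p = 0.493), with 2 of the 3 Cic-/- arrays below all Cic+/+ arrays. Without EGF it was at 11.54, 11.67 and 11.41 in the Cic-/- clones, against 11.32, 11.66, 11.67 and 11.66 in the Cic+/+ clones, and the change was -0.04 ± 0.17. Sox8, the SoxE gene that partly stands in for Sox10 in oligodendrocytes, was at 10.27, 9.91 and 9.72 in the Cic-/- clones, against 9.66, 9.51, 9.996 and 9.66 in the Cic+/+ clones with EGF. Without EGF Sox8 was at 10.81, 10.85 and 9.98 in the Cic-/- clones, against 9.996, 10.51, 10.70 and 10.62 in the Cic+/+ clones. Its genotype changes were 0.26 ± 0.23 (95% interval -0.24 to 0.76) and 0.09 ± 0.23 (-0.41 to 0.59), with the groups overlapping, so a lower level in Cic-/- cells was not seen for Sox8.

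**Figure D2:**
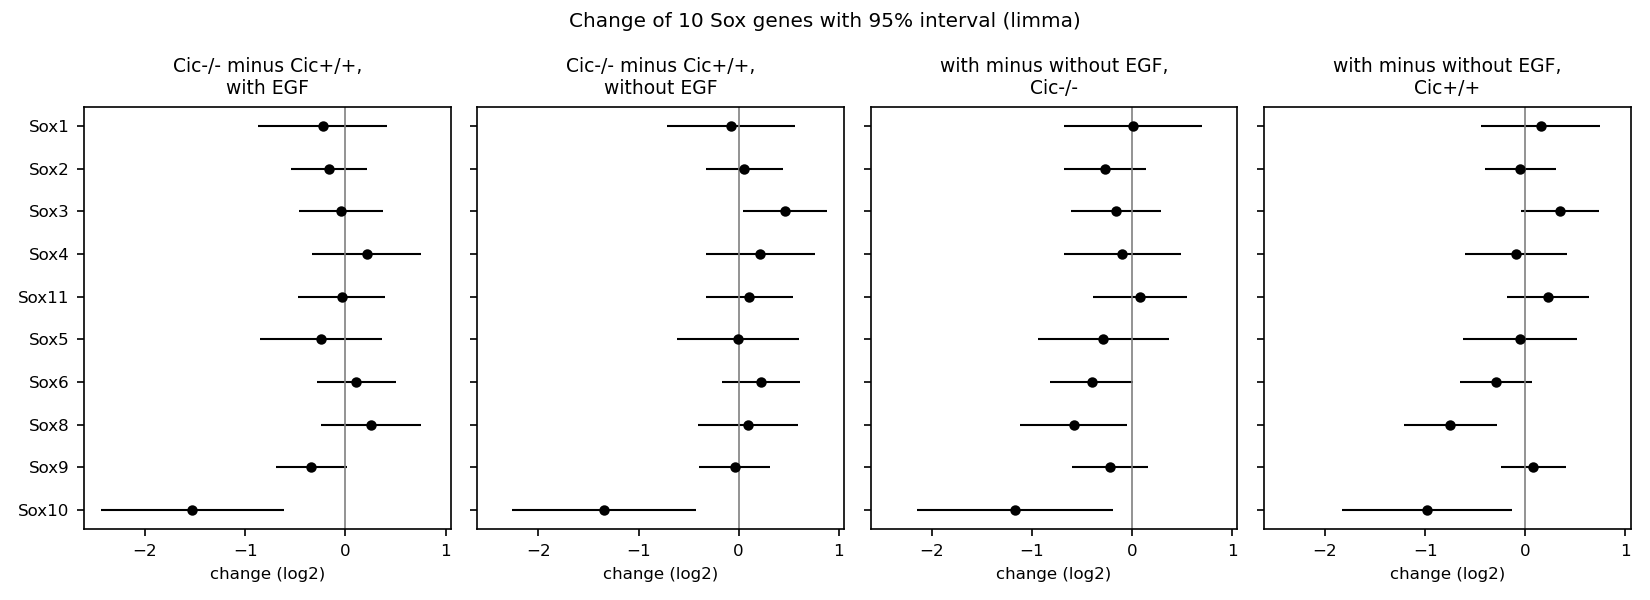
Change of each of the 10 Sox genes (log2 scale, horizontal axis) in 4 comparisons, one panel each; points are limma estimates and bars their 95% intervals. Sox10 has an interval below 0 in all 4 panels and Sox8 in the 2 panels on EGF, while no gene passed the adjusted threshold.

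Whether Sox10 moved apart from its SoxE relatives was tested as a difference of log2 values within each array, an alternative chosen after the values were seen. The change of Sox10 between genotypes differed from that of Sox8 by -1.79 with EGF, the mean difference Sox10 minus Sox8 being -4.27 ± 0.93 in Cic-/- clones and -2.48 ± 0.13 in Cic+/+ clones (SD, n = 3 and 4). Without EGF the difference was -1.43. The exact two-sided permutation test over clones gave p = 0.0571 in each medium, the smallest value that 3 against 4 clones allow. Against Sox9 the change of Sox10 differed by -1.19 with EGF (exact permutation p = 0.0571) and by -1.30 without EGF (exact permutation p = 0.1143). Sox8 against Sox9 differed by 0.60 with EGF (exact permutation p = 0.0571) and by 0.13 without EGF (exact permutation p = 0.5714). These are 6 comparisons of the same 7 clones, chosen after the values were seen, and since 3 against 4 clones cannot give a p under 0.05, the p values decide nothing.

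The second question was what EGF did to each gene. In Cic-/- cells 0 of 10 genes passed in limma's test against 0.19% of all genes, with 2 of 10 (Sox10 and Sox8) at an unadjusted p under 0.05 against 9.8% of all genes. In Cic+/+ cells 0 of 10 passed against 0.898% of all genes, with 2 of 10 (Sox8 and Sox10) at an unadjusted p under 0.05 against 12.5%. The arrays of a clone are paired, and with the clone as a fixed block 1 of 10 genes passed in Cic-/- cells (Sox10, against 2.99% of all genes) and 2 of 10 in Cic+/+ cells (Sox10 and Sox8, against 5.58%). With the clone as a random block the counts were 0 of 10 in Cic-/- cells and 1 of 10 in Cic+/+ cells (Sox8), against 2.08% and 5.17% of all genes. In Cic-/- cells 3 of 10 had an unadjusted p under 0.05 with this block. The share of all genes at that p was not counted with a block, so this count has no background beside it. The median change over the 10 genes was -0.24 in Cic-/- cells and -0.05 in Cic+/+ cells, against 0.01 and 0.00 over all genes. Since Cic-/- and Cic+/+ clones were each compared with their own arrays without EGF, the EGF and genotype comparisons use the same arrays.

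Within clones, Sox10 with EGF differed from its level without EGF by -0.97, -1.54 and -0.98 in Cic-/- clones 5, 6 and 7. It differed by -0.48, -1.26, -0.66 and -1.52 in Cic+/+ clones 1 to 4. A lower level with EGF in all 7 clones was seen in 7.43% of tested genes. In Cic-/- cells the change was -1.16 ± 0.46, or 2.24-fold, with an adjusted p of 0.395 without a block, 0.0866 with the clone as a random block and 0.0179 with it as a fixed block (SE 0.21). In Cic+/+ cells it was -0.98 ± 0.40, or 1.97-fold, with an adjusted p of 0.314 without a block, 0.0665 with the random block and 0.0125 with the fixed block (SE 0.18). Without a block, the EGF change in Cic-/- minus that in Cic+/+ cells was -0.18 ± 0.60 (95% interval -1.48 to 1.11), so a difference between the genotypes was not detectable. That interval does not use the pairing of the arrays of a clone. The SD of the differences within clones was 0.33 in Cic-/- and 0.49 in Cic+/+ cells. In limma's test the adjusted p of this interaction was 0.999 or more in every alternative, the blocks included. Relative to one another the group means of Sox10 stood at 5.70 ± 0.76 in Cic-/- cells with EGF, 6.86 ± 1.07 in Cic-/- cells without EGF, 7.22 ± 0.28 in Cic+/+ cells with EGF and 8.20 ± 0.40 in Cic+/+ cells without EGF, and the middle 2 groups differed by less than the SD of the Cic-/- clones.

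Sox8 with EGF differed from its level without EGF by -0.54, -0.94 and -0.26 in Cic-/- clones 5, 6 and 7. In Cic+/+ clones 1 to 4 the differences were -0.34, -0.99, -0.70 and -0.96. Every clone went the same way, with clones 7 and 1 the least and clones 2, 4 and 6 the most. In Cic-/- cells the change was -0.58 ± 0.25 (95% interval -1.11 to -0.05), or 1.49-fold, with an adjusted p of 0.451 without a block, 0.14 with the random and 0.113 with the fixed block. In Cic+/+ cells it was -0.75 ± 0.22 (95% interval -1.21 to -0.29), or 1.68-fold, with an adjusted p of 0.138 without a block, 0.0225 with the random and 0.0186 with the fixed block. The interaction was 0.17 ± 0.33, so the EGF change of Sox8 was not shown to differ between genotypes. The group means of Sox8 were 9.97 ± 0.28 in Cic-/- cells and 9.71 ± 0.20 in Cic+/+ cells with EGF, and 10.54 ± 0.49 in Cic-/- cells and 10.46 ± 0.32 in Cic+/+ cells without EGF.

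**Figure D3:**
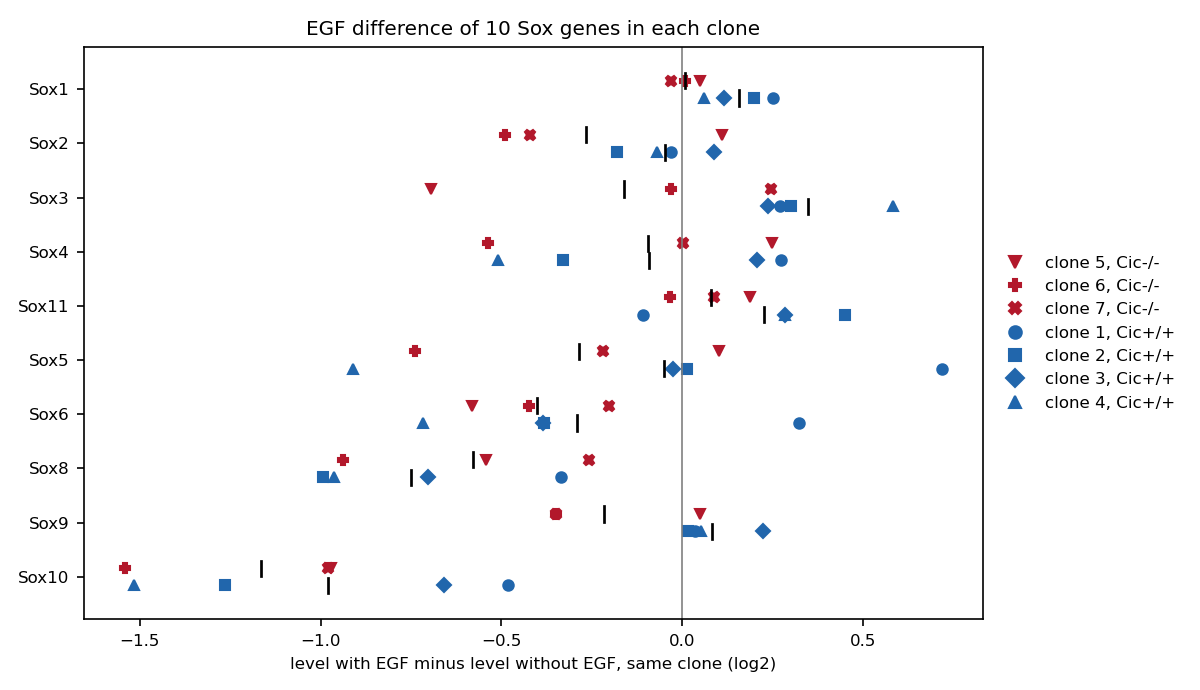
Level with EGF minus level without EGF in the same clone (log2 scale, horizontal axis) for each of the 10 Sox genes, with Cic-/- clones drawn above Cic+/+ clones and short lines marking the mean of each genotype. All 7 clones lie below 0 for Sox10 (-1.54 to -0.48) and for Sox8 (-0.99 to -0.26), and most other genes have clones on both sides of 0.

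The remaining genes had smaller differences with EGF. Sox6 was lower with EGF in 3 of 3 Cic-/- clones, with differences of -0.58 to -0.20, and in 3 of 4 Cic+/+ clones, with clone 1 higher by 0.32, and its changes were -0.40 ± 0.19 in Cic-/- and -0.29 ± 0.17 in Cic+/+ cells. Sox3 was higher with EGF in 4 of 4 Cic+/+ clones, by 0.24 to 0.58, while the Cic-/- clones ran from -0.69 to 0.25. The interaction of Sox3 was -0.51 ± 0.28 (95% interval -1.10 to 0.09, adjusted p = 1.000), the largest in size among the 10 genes. Sox1 was higher with EGF in 4 of 4 Cic+/+ clones by 0.06 to 0.25, and stayed within 0.05 of its level without EGF in each Cic-/- clone. Lower or higher levels with EGF in all 4 Cic+/+ clones were seen in 15.1% and 13.8% of all tested genes, and in all 3 Cic-/- clones in 18.6% and 18.2%.

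Sox9 was higher with EGF in 4 of 4 Cic+/+ clones by 0.02 to 0.22 and in 1 of 3 Cic-/- clones, with a mean of -0.22 there. Sox2 differed with EGF by -0.27 ± 0.19 in Cic-/- cells (lower in 2 of 3 clones) and by -0.05 ± 0.16 in Cic+/+ cells (lower in 3 of 4 clones). Sox11 differed by 0.08 ± 0.22 in Cic-/- and 0.23 ± 0.19 in Cic+/+ cells. The change of Sox4 was -0.10 in Cic-/- and -0.09 in Cic+/+ cells, with clones on both sides of 0 in each genotype. Sox5 ran from -0.74 to 0.10 in Cic-/- clones and from -0.91 to 0.72 in Cic+/+ clones, so its 2 Cic+/+ extremes, clones 4 and 1, opposed each other. None of these 8 genes passed with the clone as a fixed or a random block. Over the interaction, 0 of 10 genes passed in limma's test, against 0.00576% of all genes, and 0 of 10 had an unadjusted p under 0.05, against 2.86%.

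The probesets of a gene gave a second view of each change. The 10 genes held 83 probesets, from 1 for Sox1 to 25 for Sox5, and 0 of the 83 passed in any of the 5 comparisons when each probeset was tested on its own over 233753 probesets, an alternative added after seeing the data. Of all probesets 0.000856% to 0.166% passed in a comparison, so 0 of 83 does not set the Sox genes apart. For Sox10, 6 of 6 probesets were lower in Cic-/- cells in both media, by changes of -2.29 to -0.47 with EGF and -2.04 to -0.74 without EGF. All 6 were also lower with EGF in both genotypes. For Sox8, 7 of 7 probesets were lower with EGF in Cic-/- cells (-0.83 to -0.38) and in Cic+/+ cells (-0.92 to -0.28), while between genotypes with EGF 5 were positive and 2 negative. For Sox9, 6 of 6 were lower in Cic-/- cells with EGF (-0.77 to -0.18), and 5 of 6 without EGF. Probesets of 1 gene are read from the same RNA and are not replicates.

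Sox6 held 1 probeset that stood apart, picked out after its values were seen. It averaged 7.20 ± 0.54 in Cic-/- cells against 8.99 ± 0.52 in Cic+/+ cells with EGF, and 8.04 ± 0.85 in Cic-/- cells against 9.53 ± 0.60 in Cic+/+ cells without EGF. The changes were -1.79 ± 0.44 (adjusted p over all probesets = 0.243) and -1.48 ± 0.44 (adjusted p = 0.312). The other 19 probesets of Sox6 had changes between -0.72 and 0.27 with EGF, so the level of Sox6 as a median did not carry this probeset.

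**Figure D4:**
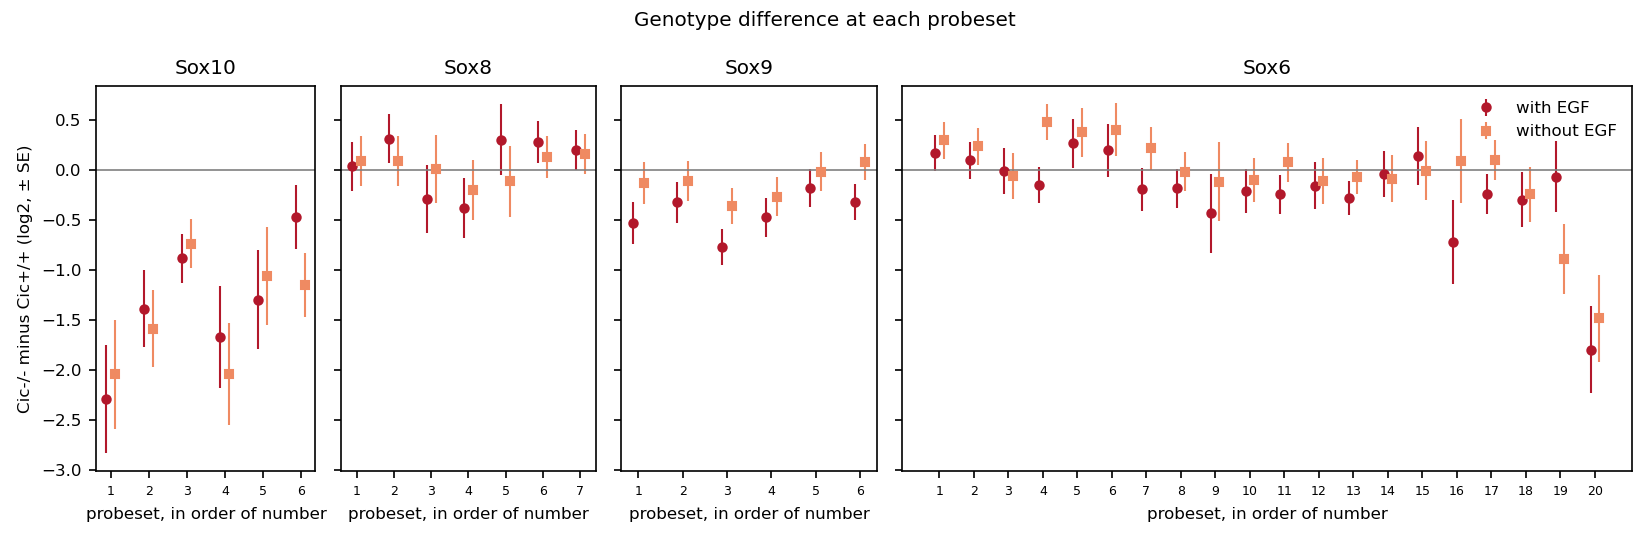
Change in Cic-/- minus Cic+/+ cells (log2 scale, vertical axis, ± SE) at each probeset of Sox10, Sox8, Sox9 and Sox6, in order of probeset number, with EGF (circles) and without EGF (squares). All 6 Sox10 probesets are below 0 in both media, and the last Sox6 probeset, at -1.79 and -1.48, is apart from the other 19.

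Genes reported as targets or partners of these factors were counted beside them. Of 18 glial genes reported as targets of SoxE factors, 16 were measured as 1 gene and tested. In Cic-/- against Cic+/+ cells with EGF, 1 of 16 passed and fell in Cic-/- cells, Pdgfra, the receptor of oligodendrocyte progenitors (change -2.61, adjusted p = 0.00820), while 0.242% of all tested genes passed as lower. Without EGF 4 of 16 fell in Cic-/- cells and 0 rose, against 0.426% of all genes that fell. These were the myelin genes Mbp (-2.35) and Mag (-2.57), Cldn11 (-2.51), the claudin of myelin sheaths, and Myrf (-1.76), the regulator that acts with Sox10 at myelin genes. The median change of the 16 was -0.17 with EGF and -0.34 without EGF, against 0.02 and 0.00 over all genes, and 2 and 5 of 16 had an unadjusted p under 0.05, against 10.6% and 10.8% of all genes.

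With EGF against without it, 5 of 16 fell in Cic+/+ cells, against 0.593% of all genes, namely Mbp (-1.92), Mag (-2.43), Myrf (-1.68), Cldn11 (-1.24) and the astrocyte water channel Aqp4 (-2.28). In Cic-/- cells 0 of 16 passed in limma's test, against 0.19% of all genes, and 4 had an unadjusted p under 0.05, against 9.8%. The differences there were -0.18 for Mbp, -0.03 for Mag, -0.13 for Myrf, 0.34 for Cldn11 and -1.72 for Aqp4. The interaction of the first 4 was 1.74 for Mbp, 2.41 for Mag (adjusted p = 0.087), 1.54 for Myrf and 1.58 for Cldn11. Without a block 0 of 16 genes passed for it in limma's test, against 0.00576% of all genes, and 6 of 16 had an unadjusted p under 0.05, against 2.86%.

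The same lists were also fitted with the clone as a block, settings added after seeing the data. For the interaction, 2 of 16 SoxE targets then passed with the random block, Mag (adjusted p = 0.00289) and Myrf (adjusted p = 0.0389), against 0.0403% of all genes. With the fixed block 1 of 16 passed, Mag (adjusted p = 0.000744), against 0.0173% of all genes, while Myrf had an adjusted p of 0.121. Mbp and Cldn11 did not pass, with adjusted p values of 0.167 each with the random block and of 0.121 and 0.31 with the fixed block. Within clones the EGF difference of Mag lay between -0.19 and 0.28 in Cic-/- clones, against -2.52 to -2.34 in Cic+/+ clones, and that of Myrf between -0.64 and 0.20 in Cic-/- clones, against -1.83 to -1.42 in Cic+/+ clones. The genotypes did not overlap for either gene. For EGF in Cic-/- cells, 2 of 16 fell with the random block (Pdgfra, with a change of -1.80, and Aqp4) and 3 of 16 with the fixed block (these and Mmd2, a membrane protein gene), against 2.08% and 2.99% of all genes that passed in either direction. For EGF in Cic+/+ cells, 7 of 16 fell with either block, namely the 5 genes above with Cnp and Mmd2, against 3.2% (random) and 3.28% (fixed) of all genes that fell. With the fixed block 1 rose, the sulfatase gene Sulf1 (2.01, adjusted p = 0.00911), against 2.3% of all genes that rose.

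In Cic-/- clone 6 without EGF, Sox10 was set beside the 4 genes that had passed as lower in that comparison and medium, so these 4 were chosen for being low. Clone 6 is also the Cic-/- clone with the highest Sox10 in that medium. The contrast below was thus set by the choice of genes and clone, and it describes 1 array only. This clone had Sox10 at 8.05, within the Cic+/+ range of 7.62 to 8.52. Its Mbp was at 6.13, its Mag at 4.56, its Myrf at 7.11 and its Cldn11 at 6.74, against lowest Cic+/+ values without EGF of 7.27, 6.48, 8.25 and 8.59. All 4 lay below every Cic+/+ array without EGF, while Sox10 did not. Mog, a myelin gene that did not pass, was at 5.19 in this array, within the Cic+/+ range of 5.01 to 5.37. Its Pdgfra, at 10.17, was above the highest Cic+/+ array without EGF, 10.15. The bHLH factor Olig2, a partner of the lineage, was at 12.24 in this array, and the change of Olig2 was -0.14 (adjusted p = 0.783) between genotypes without EGF.

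**Figure D5:**
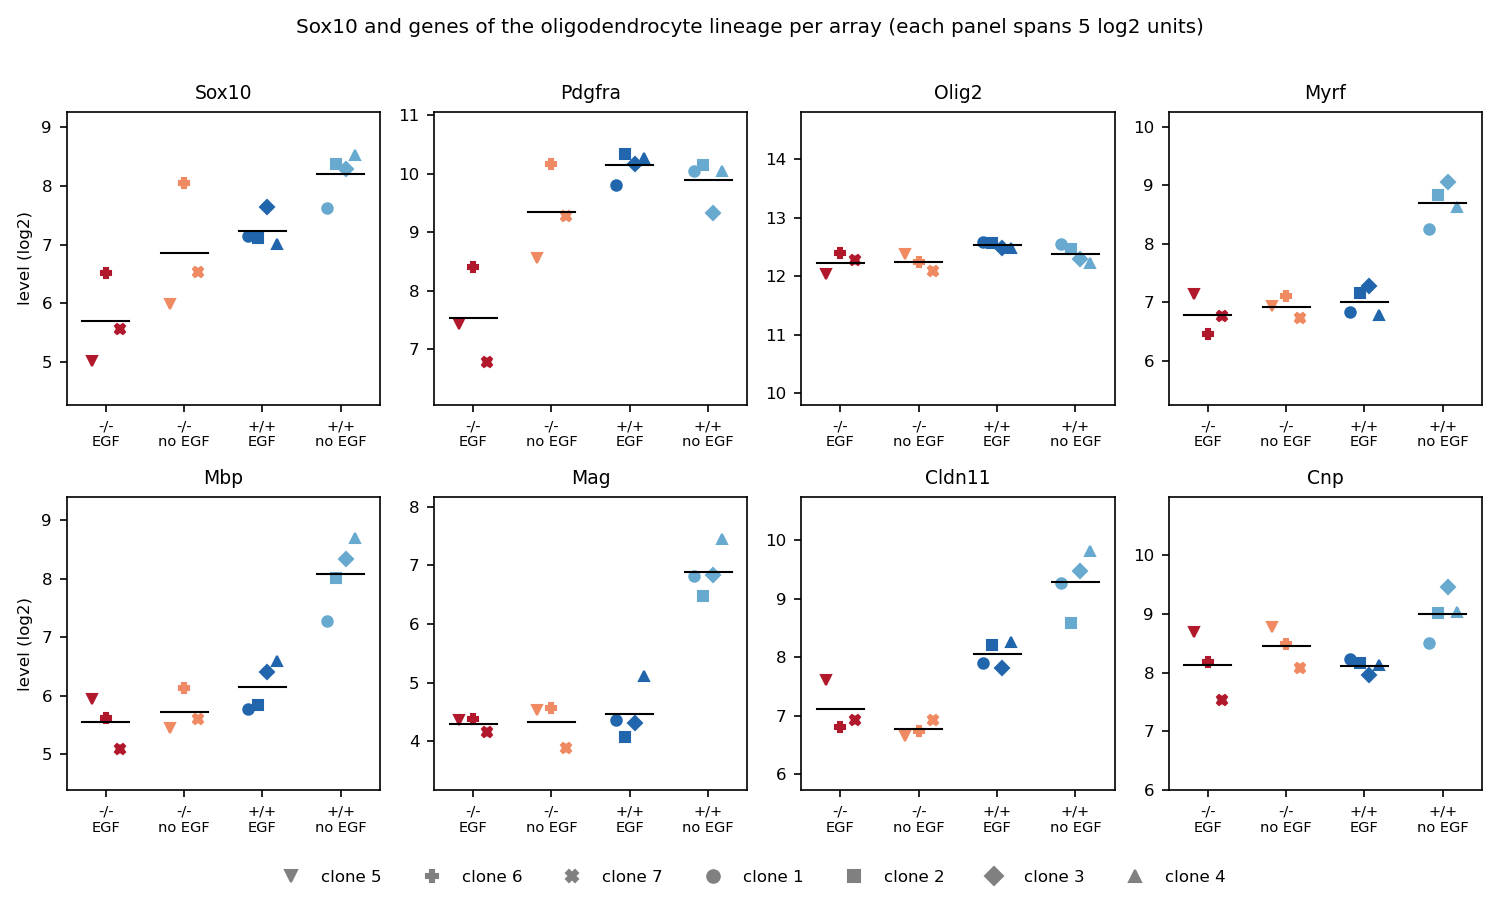
Level of Sox10 and of 7 genes of the oligodendrocyte lineage in every array (log2 scale, vertical axis) by genotype and medium, with clones by marker shape, lines for group means and panels of 5 log2 units. Myrf, Mbp, Mag and Cldn11, which had passed as lower in Cic-/- cells without EGF, are highest in the 4 Cic+/+ arrays without EGF. Sox10 in Cic-/- clone 6 without EGF, the highest of the Cic-/- clones at 8.05, is among the Cic+/+ values.

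Marker lists of cell types that such cultures can hold are given beside Sox10. Over 6 progenitor markers (Pdgfra, Cspg4, Olig1, Olig2, Gpr17 and Cnp) the mean level was 9.15 to 9.53 in Cic-/- cells and 9.91 to 10.30 in Cic+/+ cells with EGF, and 9.95 to 10.56 in Cic-/- cells and 10.48 to 10.78 in Cic+/+ cells without EGF. Over 6 measured markers of myelinating oligodendrocytes (Mbp, Mag, Mog, Mobp, Cldn11 and Enpp6) it was 5.14 to 5.38 in Cic-/- cells and 5.49 to 5.82 in Cic+/+ cells with EGF, and 5.14 to 5.44 in Cic-/- cells and 6.99 to 7.45 in Cic+/+ cells without EGF. In Cic-/- cells this list averaged 5.29 with EGF and 5.32 without EGF, while the progenitor list averaged 9.40 with EGF and 10.23 without EGF. Most of that progenitor difference came from Gpr17 (6.64 with EGF, 9.10 without EGF) and Pdgfra (7.54 and 9.34). With and without EGF, Olig2 was at 12.23 and 12.24 and Olig1 at 12.47 and 12.63. Cspg4 was at 9.38 and 9.62, and Cnp at 8.14 and 8.45. Sox10 was lower with EGF in Cic-/- cells by 1.16 on average (change -1.16), as the mean of the progenitor list was. The mean of the myelin list hardly differed there. Without EGF, its genes Mag, Enpp6, Mog and Mobp averaged 4.33, 4.56, 5.13 and 5.41 in Cic-/- cells, against a dim limit of 4.40. A lower level with EGF could hardly show in these genes. Mbp and Cldn11 were higher, at 5.73 and 6.77. Over 6 astrocyte markers the mean level was 9.09 to 9.26 in Cic-/- cells and 9.01 to 9.77 in Cic+/+ cells with EGF. Without EGF it was 9.57 to 10.06 in Cic-/- cells and 10.16 to 10.65 in Cic+/+ cells. Over 6 markers of neuroblasts and neurons it was 7.75 to 8.07 in Cic-/- cells and 7.98 to 8.07 in Cic+/+ cells with EGF, and 8.41 to 8.67 in Cic-/- cells and 7.98 to 8.31 in Cic+/+ cells without EGF. Some markers not named above as passing also passed in limma's test without a block. Gpr17, Enpp6 and the astrocyte markers S100b and Gja1 fell with EGF in Cic+/+ cells, against 0.593% of all genes. Gpr17 also fell with EGF in Cic-/- cells, against 0.0921%. Without EGF, Enpp6 was lower and Cd24a higher in Cic-/- cells, against 0.426% and 0.127%. Enpp6 alone of all tested genes passed for the interaction (0.00576%). All markers of these 4 lists had a mean over the 14 arrays above the dim limit. In single arrays Mag lay below that limit in 3 of 3 Cic-/- and 3 of 4 Cic+/+ arrays with EGF, and in 1 of 3 Cic-/- arrays without EGF. Enpp6 did so in 1 of 3 Cic-/- arrays in each medium. The changes of Mag given above are thus against levels near the background of the arrays. Their part in the values of Sox10 and Sox8 was not tested.

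Of 16 partners and cofactors of Sox factors, 1 fell in Cic-/- cells in both media, against 0.242% of all genes with EGF and 0.426% without EGF. This was Hdac1, a histone deacetylase, at 9.57 ± 0.29 in Cic-/- cells against 11.00 ± 0.23 in Cic+/+ cells with EGF (adjusted p = 0.00411) and 9.24 ± 0.20 against 10.62 ± 0.26 without EGF (adjusted p = 0.00264). The partners of SoxE factors in glia did not pass, with Nkx2-2 at -0.63 and -0.64, Olig2 at -0.30 and -0.14 and Olig1 at -0.15 and -0.03 with and without EGF. With EGF, Nfib, a nuclear factor I protein of gliogenesis, rose in Cic+/+ cells (0.60 ± 0.11, adjusted p = 0.0219), 1 of 16 against 0.305% of all genes. In Cic-/- cells 0 of 16 passed, against 0.19% of all genes, and 2 of 16 had an unadjusted p under 0.05, against 9.8%. The change of Nfib there was 0.32 (adjusted p = 0.424). The other lists held no gene that passed in limma's test without a block in any comparison. These were 12 neural genes reported as SoxB1 targets, 6 tested SoxC targets, 5 cartilage genes and 9 tested other Sox genes. At an unadjusted p under 0.05 stood 3 of 6 SoxC targets for genotype without EGF (10.8% of all genes), EGF in Cic+/+ (12.5%) and EGF in Cic-/- cells (9.8%). All 6 were higher in Cic-/- cells without EGF (median 0.28, all genes -0.003), and all 6 had a negative interaction (median -0.46, all genes 0.01). Dcx hardly differed between genotypes without EGF, at 9.21 in Cic-/- and 9.19 in Cic+/+ cells. The listed Neurod1, left out as dim, was lower in Cic-/- cells, at 3.71 against 4.10. The share of all genes with either sign was not counted. The SoxB1 targets had 0 to 3 of 12 at that p over the 5 comparisons. The cartilage and other Sox genes each had 0 or 1. Of these other Sox genes, Sox7 had a change of 1.11 with EGF in Cic+/+ cells (adjusted p = 0.095) and Sox21 one of 0.18.

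With the clone as a block, more genes of these lists passed for EGF, against 2.08% (random) and 2.99% (fixed) of all genes in Cic-/- cells and 5.17% and 5.58% in Cic+/+ cells. Of 6 SoxC targets, 2 fell in Cic-/- cells with either block, Dcx (-2.74), a microtubule protein of migrating neuroblasts, and Mapt (-1.14), the microtubule protein tau. In Cic+/+ cells Mapt (-0.74) fell and Tead2 (0.60), a TEAD transcription factor, rose with either block, and Dcx (-1.22) fell with the fixed block, its adjusted p with the random block being 0.0553. In Cic+/+ cells 2 of 12 SoxB1 targets rose with either block, Nes (1.32), the intermediate filament gene of neural progenitors, and the cyclin gene Ccnd1 (1.10). Likewise 2 of 16 partners rose there, Nfib and Pou3f1 (0.73), a POU factor, and 1 of 9 other Sox genes, Sox7, with an adjusted p of 0.0226 with the random block and 0.0369 with the fixed block. Of these 3 lists 0 genes passed in limma's test in Cic-/- cells with either block, with 2 to 5 genes of each at an unadjusted p under 0.05. For the interaction 0 genes of the lists other than the SoxE targets passed in limma's test with either block, with 0 to 2 of each at an unadjusted p under 0.05. The 5 cartilage genes held 0 that passed for EGF, with 0 or 1 at an unadjusted p under 0.05. The share of all genes at an unadjusted p under 0.05 was not counted in the fits with a block. The counts at that p in this paragraph thus have no background beside them.

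Genes whose level followed a Sox gene over the 14 arrays were listed for the 3 genes with the largest SD, Sox10 (1.08), Sox8 (0.46) and Sox1 (0.40). The measure is Pearson's correlation of log2 levels, the 14 arrays come from 7 clones, and the arrays share their groups. For Sox10 the 5 genes most alike were Nnat (r = 0.93), Egfl6 (0.92), Luzp2 (0.91), S100a1 (0.90) and Oxct1 (0.90). For Sox8 they were Rab33b (0.96), Hey2 (0.96), Fbp1 (0.96), Tmem106b (0.96) and Bcl7a (0.95). For Sox1 they were Ulbp1 (0.89), Reep6 (0.88), Uchl5 (0.86), Arv1 (0.85) and Kcne1l (0.85). Among the Sox genes themselves Sox6 and Sox8 were most alike (r = 0.84), followed by Sox4 and Sox8 (0.70) and Sox2 and Sox9 (0.69), while Sox10 had correlations of -0.35 with Sox3 and 0.49 with Sox9 at the ends of its range.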

How the data were processed

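The deposited table holds 269751 probesets by 14 arrays, with log2 values that the authors made with RMA, per the submitters' processing notes; for the software version and the genome build the sources used here give nothing. Hybridisation targets were made from total RNA with a whole-transcript kit, per the labels. Of the probesets, 233753 carried 1 gene symbol, and a gene's value was the median of those. Symbols were updated through RefSeq (GRCm38.p6). The lowest 25% of genes by mean level were left out.

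All 14 arrays entered 1 limma fit (version 3.58.1, R 4.3.3) with 4 group means, no block and Benjamini-Hochberg adjustment over 17364 genes, checked on simulated data. The simulated arrays were drawn independently of one another, so that check does not cover the pairing of the arrays of a clone. Python 3.11.15 and scipy 1.17.1 served for tables and exact tests. Clones are separate animals, and the number of arrays limits the precision. Arrays of 1 clone share an animal and are thus paired; their deviations from group means correlated at 0.156 to 0.616 in the 7 clones.

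The 10 genes, the gene and marker lists and the tests were chosen with earlier results of these data known. All 10 genes are named throughout. List genes are named where they passed, with up to 4 that did not, and the 5 genes most alike are given for the 3 Sox genes of largest SD. Marker lists were counted in the fit without a block only. Other genes named were chosen after their values were seen. Alternatives covered the mean or brightest probeset, no or a stricter dim filter at 50%, a trended robust prior, centred or quantile-normalized arrays, only the arrays compared, the clone as a block, and each clone left out. Probesets with several symbols or none were not used.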

Additional observations from a re-analysis of the deposited data

Results flagged for a closer look

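In the Cic+/+ group without EGF, clone 1 lay far below the other 3 clones for 2 Sox genes. Its Sox5 level was 6.88, against 7.94 to 8.13 in clones 2, 3 and 4, and its Sox9 level was 11.32, against 11.66 to 11.67 in those clones. The gap to the nearest clone exceeded Dixon's 95% critical value for 4 samples in both. Of 30 groups of 4 values looked at, 2 met this rule, and chance meets it in about 1 group in 20.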

How the results depend on the processing

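Of 50 changes of the 10 Sox genes, 23 turned sign under at least 1 alternative, each of them 0.24 or less in size and none with an unadjusted p under 0.05 in the fit reported; the cause was not tested. The number of Sox genes that passed stayed at 0 except in these cases. With the clone as a random replicate block it was 1 for EGF in Cic+/+ cells. With the clone as a fixed replicate block it was 2 there and 1 in Cic-/- cells. The blocks changed no other call of a Sox gene, and over all genes the fixed block gave 969 calls for EGF in Cic+/+ cells, against 156 without a block, and 519 in Cic-/- cells, against 33. Over the fits without 1 clone it was 0 to 1 for genotype with EGF and 0 to 1 without EGF (Sox10, without clone 6).

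In Cic-/- against Cic+/+ cells with EGF, the mean of probesets gave -0.21 for Sox6, and the brightest probeset 0.0237 for Sox2 and -0.24 for Sox6. Without EGF, the mean of probesets gave -0.0881 for Sox2, -0.0171 for Sox4, -0.0464 for Sox6 and -0.0178 for Sox11, centring the arrays 0.0331 for Sox5 and 0.0004 for Sox9, and quantile normalization 0.0107 for Sox5. The mean of both media per clone, added after seeing the data, gave 0.21 for Sox3, 0.0345 for Sox11 and -0.052 for Sox2. For EGF in Cic+/+ cells the brightest probeset gave 0.0121 for Sox4. For the interaction the mean of probesets gave 0.0592 for Sox4 and 0.10 for Sox10, and the brightest probeset 0.37 for Sox10.

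With 1 clone left out, genotype changes with EGF ran from -0.55 to 0.0373 for Sox1, -0.25 to 0.205 for Sox3, -0.0777 to 0.42 for Sox4 and -0.14 to 0.16 for Sox11. Without EGF they ran from -0.42 to 0.18 for Sox1, -0.0738 to 0.15 for Sox2, -0.30 to 0.14 for Sox5, -0.0634 to 0.37 for Sox8, -0.13 to 0.024 for Sox9 and -0.0422 to 0.36 for Sox11. EGF changes ran from -0.21 to 0.0491 for Sox4 and -0.31 to 0.24 for Sox5 in Cic+/+ cells, and from -0.0111 to 0.028 for Sox1, -0.36 to 0.11 for Sox3 and -0.27 to 0.12 for Sox4 in Cic-/- cells. The interaction ran from -0.18 to 0.22 for Sox4, -0.52 to 0.0213 for Sox5, -0.25 to 0.092 for Sox6 and -0.36 to 0.0051 for Sox10. The array number limits what can be called. Sox10 in clone 5 was at 5.02 with EGF, the Sox10 value nearest the dim limit of 4.40, and at 5.99 without EGF.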

Other observations

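Sox2ot, the long noncoding transcript whose locus overlaps Sox2, was looked up after the Sox2 values were seen. In clone 5, which is Cic-/-, it was at 6.76 with EGF and 6.59 without EGF. In Cic-/- clones 6 and 7 it was at 9.28 and 8.90 with EGF and at 9.59 and 8.81 without EGF, and in the Cic+/+ clones it lay between 8.55 and 9.29 with EGF and between 8.52 and 9.15 without EGF. Sox2 itself in clone 5 was at 11.73 with EGF and 11.62 without EGF, inside the range of the other clones. The array's probesets cannot tell overlapping transcripts apart where they share sequence.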
